A study of Mus musculus with 39 samples.

Results

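The data below concern 10 genes of the Polycomb system and of H3K27 demethylation, namely Ezh1, Ezh2, Eed, Suz12, Ring1, Rnf2, Bmi1, Pcgf1, Cbx2 and Kdm6b. They were chosen by symbol, by taking the array probes whose target transcript carries one of these names in the RefSeq mouse annotation. All 10 genes were found, on 15 of 26880 probes that the annotation assigned to 18323 symbols. All 15 probes passed the filter on dim probes (an intensity of at least 10 on at least 1 embryo array), which left 39520 of 41174 probes and 18049 named genes for the tests.

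The study hybridized RNA of mouse oocytes, 2-cell embryos and donor cells to 39 single-colour arrays. It asked how embryos cloned by somatic cell nuclear transfer (SCNT) differ from fertilized ones, and what a histone deacetylase inhibitor, trichostatin A (TSA), or mRNA of the transcription factor Spi-C does to their transcripts. All samples carried the strain label (B6xDBA/2)F1, and the labels gave no age, while the study's methods give the females that provided oocytes and donor cells as 8 to 10 weeks old. The group OC held unfertilized oocytes at metaphase II (n = 7), and IVF held 2-cell embryos from in vitro fertilization (n = 6). TSA(-) held 2-cell embryos cloned from cumulus cells without TSA (n = 8), and TSA(+) held cloned embryos kept in 5 nM TSA for the first 8 h after activation (n = 6). The groups Spi-C 1.0 and Spi-C 0.1 (n = 4 each) were cloned embryos that received Spi-C mRNA at 1.0 or 0.1 mg/ml at the pronuclear stage, and together they are called Spi-C NT. Their labels named no TSA, and the labels list no group with a control mRNA. Cumulus held the donor cells (n = 4). Embryos were in culture for 24 h, and each array carried the amplified RNA of 10 pooled oocytes or embryos, or of 500 cumulus cells, so that no value belongs to a single embryo. In such pools, fewer cells of a type and less RNA per cell cannot be told apart.

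Polycomb proteins keep genes silent through marks on histone tails. Polycomb repressive complex PRC2 methylates histone H3 at lysine 27 (H3K27), and PRC1 places ubiquitin on histone H2A and reads the methyl mark, while Kdm6 enzymes remove that mark. In mammals, oocytes pass on Polycomb transcripts, proteins and chromatin marks to the embryo, and much of the stored transcript pool is degraded around the 2-cell stage as the embryonic genome becomes active.

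Each value below is a level, the log2 intensity of a probe minus the 75th percentile of the log2 intensities of its array, so 0 is that percentile. A level orders arrays for one probe and gives no amount of RNA, and levels of different probes are set side by side only in the marker sums. Where a gene had more than 1 probe, its lead probe, the one with the highest mean level over the 39 arrays, stands for it, and the other probe is described beside it. The 75th percentile itself, in intensity units, was lowest in OC (median 392) and Cumulus (945), followed by IVF (1112), TSA(+) (1372) and TSA(-) (1451), and highest in Spi-C 1.0 (2395) and Spi-C 0.1 (2572). Median shares of 57.6% of all probes in OC and 63.0% in Cumulus read well above background, against 71.6% to 73.3% in the 5 embryo groups. The number of arrays limits the precision of every value.

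The arrays lay on 12 slides scanned on 7 days. OC, IVF, TSA(-) and TSA(+) shared a scanner model and software version, and several slides held more than 1 of them. Cumulus came from 1 slide and 1 day, and the Spi-C groups came from 2 slides and 1 day, both with a later scanner model and software version. For comparisons of Cumulus or Spi-C NT with any other group, the group and the slide, scanner and software cannot be told apart.

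Among the markers of the labelled material, oocyte genes were in sum highest in OC, genes of the 2-cell embryo in IVF and cumulus genes in Cumulus. The levels of 7 oocyte genes (Zp1, Zp2, Zp3, Gdf9, Bmp15, Oosp1 and Nlrp5), summed on the linear scale in units of the 75th percentile, had a median of 2990.0 in OC against 608 in IVF embryos, 550.0 in TSA(-), 488 in TSA(+), 402 in Spi-C 1.0, 381 in Spi-C 0.1 and 1.28 in Cumulus, and Oosp1 was the brightest outside Cumulus, where Gdf9 was. The 7 cumulus genes (Has2, Ptx3, Tnfaip6, Inha, Fshr, Cyp11a1 and Amh) summed to 247 in Cumulus, with Cyp11a1 brightest and 6 of 7 well above background, to 1.81 in OC and to at most 0.534 in the embryo groups. Amh alone was lower in Cumulus (mean level -6.74, well above background on 0 of 4 arrays) than in OC (-3.88, 7 of 7). Has2 was close in Cumulus (0.87) and OC (0.58). Of 6 genes of the 2-cell embryo, 5 were tested, from Zscan4c, Zscan4d, Zfp352, Tcstv1, Tcstv3 and Eif1a, and their sum was 192 in IVF, 78.1 in TSA(-), 82.2 in TSA(+), 53.0 in Spi-C 1.0, 47.0 in Spi-C 0.1, 31.9 in OC and 12.5 in Cumulus. The brightest of that list was Tcstv1 or Tcstv3 on all OC and IVF arrays, 6 of 8 TSA(-) and 3 of 6 TSA(+) arrays, Zfp352 on the other TSA(-) and TSA(+) arrays and all Spi-C arrays, and Eif1a in Cumulus. Genes of other ovarian or blood cells (Cyp17a1, Ptprc, Hbb-b1, Pecam1 and Col1a1, 4 of 5 tested) summed to medians between 0.477 and 1.53. The leukocyte gene Ptprc was the brightest of them in Cumulus, with a mean level of -1.36 and 4 of 4 arrays well above background. In the other groups its mean lay between -8.44 and -5.65. Whether other cells were carried along with the cumulus cells was not tested.

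Of the 7 groups, the mean level of the lead probe was highest in OC for each of the 10 genes, although quantile normalization of the arrays put Suz12 and Bmi1 higher in IVF than in OC. Cumulus was lowest for Ezh2, Eed, Suz12, Rnf2, Bmi1, Pcgf1, Cbx2 and Kdm6b, Spi-C 0.1 for Ezh1 and IVF for Ring1. The lead probes read well above background on every array and none was saturated.

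**Figure D1:**
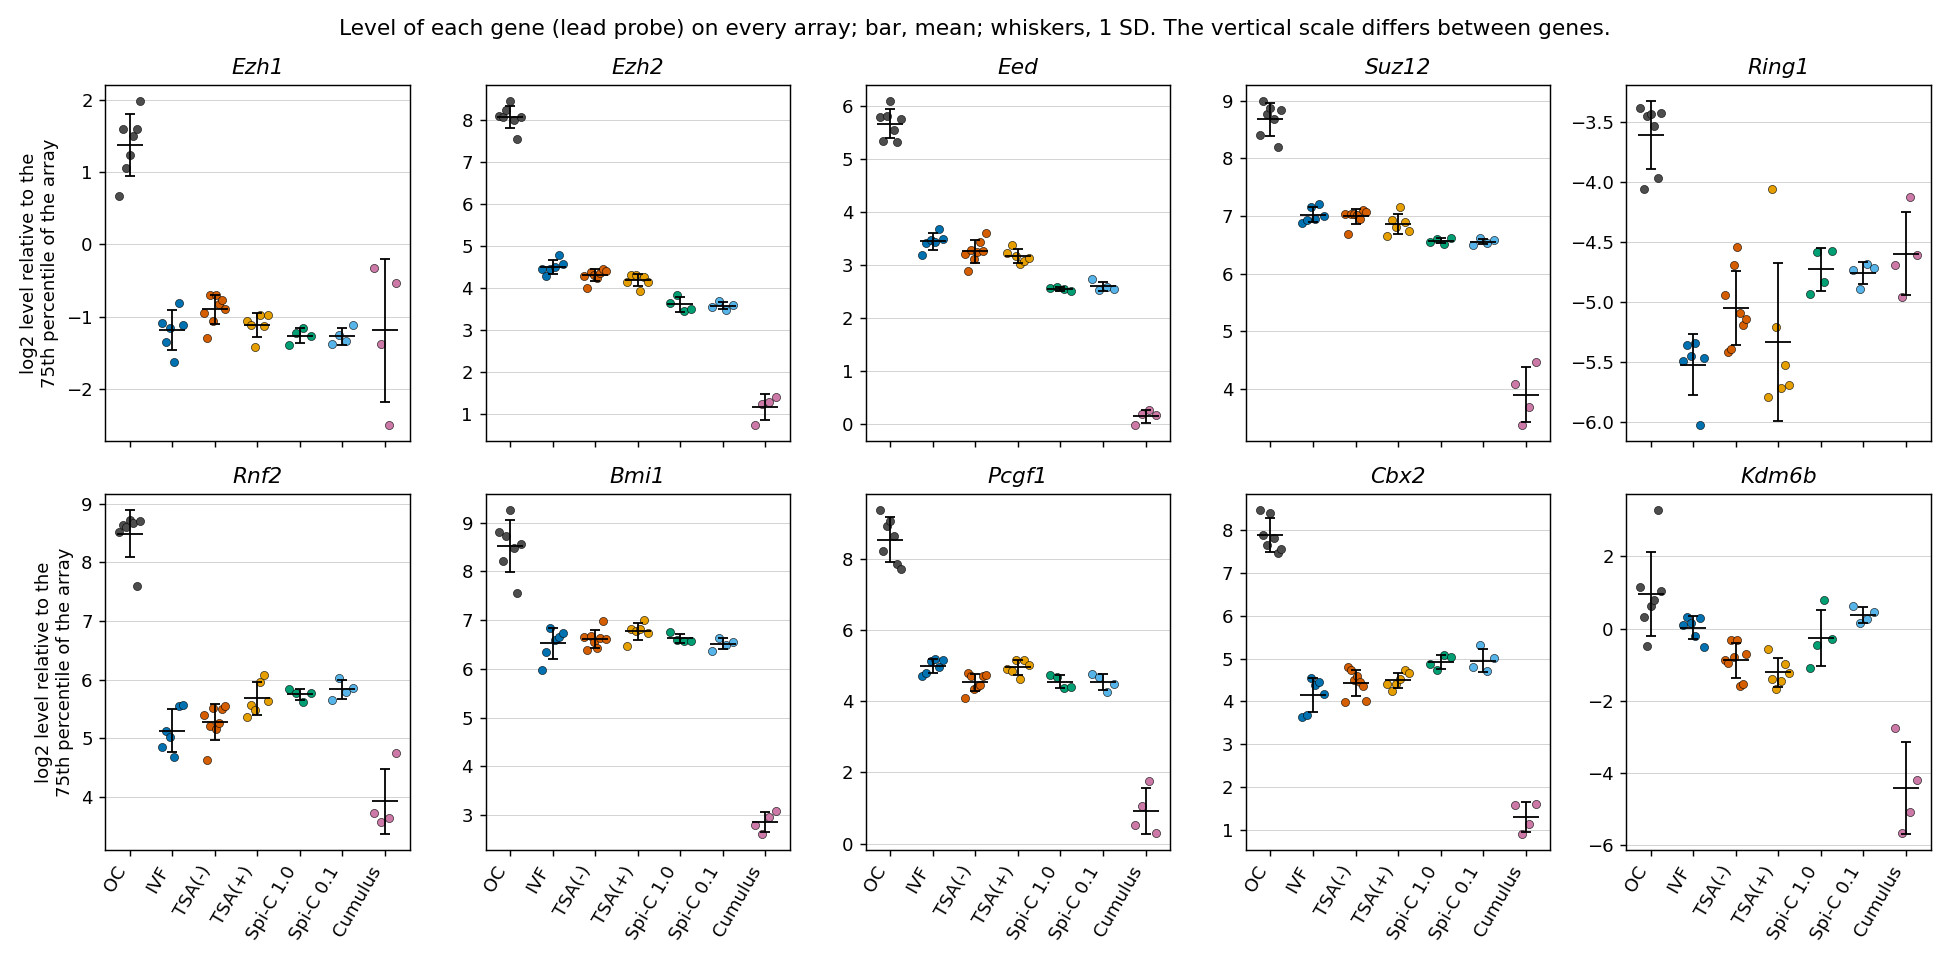
Level of the lead probe of each gene (log2 relative to the 75th percentile of the array) on every array of the 7 groups, with a bar at the group mean and whiskers of 1 SD, on vertical scales that differ between panels. OC was highest in mean for all 10 genes with this scaling (quantile normalization put Suz12 and Bmi1 higher in IVF), and Cumulus was lowest for 8 of them, with Ezh2 at 8.07 ± 0.27 in OC and 1.17 ± 0.30 in Cumulus (mean and SD).

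Ezh2 encodes the main H3K27 methyltransferase of PRC2. From the lowest to the highest array, its lead probe read 7.56 to 8.45 (median 8.08) in OC, 4.28 to 4.78 (median 4.47) in IVF, 3.99 to 4.45 (median 4.33) in TSA(-) and 3.93 to 4.32 (median 4.20) in TSA(+). The Spi-C 1.0 arrays read 3.64, 3.84, 3.45 and 3.51, the Spi-C 0.1 arrays 3.55, 3.69, 3.48 and 3.59, and the Cumulus arrays 0.73, 1.24, 1.29 and 1.41. Every OC array was above every other array, every Cumulus array was below every other array, and the 8 Spi-C arrays lay below all IVF, TSA(-) and TSA(+) arrays. IVF, TSA(-) and TSA(+) overlapped, as did the Spi-C groups. Ezh1, the second H3K27 methyltransferase and the one known from non-dividing cells, read 0.67 to 1.98 (median 1.5) in OC, with means of -0.90 in TSA(-), -1.11 in TSA(+), -1.19 in IVF and Cumulus, -1.26 in Spi-C 1.0 and -1.27 in Spi-C 0.1. OC stood apart for Ezh1 while the other 6 groups overlapped their neighbours in the order of means, and the Cumulus arrays, at -0.33, -1.38, -2.50 and -0.54, spread more widely than any embryo group.

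Eed binds the methylated H3K27 tail and stimulates the enzyme. Eed levels ran from lowest to highest at 5.33 to 6.10 (median 5.77) in OC, 3.19 to 3.68 (median 3.45) in IVF, 2.89 to 3.60 (median 3.25) in TSA(-) and 3.02 to 3.38 (median 3.16) in TSA(+). For Eed the Spi-C 1.0 arrays gave 2.57, 2.59, 2.54 and 2.51, the Spi-C 0.1 arrays 2.73, 2.52, 2.58 and 2.55, and the Cumulus arrays -0.03, 0.18, 0.25 and 0.16. The order of the groups was that of Ezh2 apart from the order of the overlapping Spi-C groups, with OC apart at the top, Cumulus apart at the bottom, and the 8 Spi-C arrays below every IVF and cloned array without Spi-C. Suz12 holds the PRC2 core together. Its lead probe gave levels, again lowest to highest, of 8.19 to 8.99 (median 8.77) in OC, 6.88 to 7.20 (median 6.97) in IVF, 6.68 to 7.11 (median 7.03) in TSA(-) and 6.66 to 7.15 (median 6.85) in TSA(+). Suz12 in Spi-C 1.0 read 6.55, 6.60, 6.52 and 6.62, in Spi-C 0.1 6.50, 6.61, 6.53 and 6.58 and in Cumulus 4.09, 3.37, 3.68 and 4.47. Here too OC was above and Cumulus below all other arrays, and the Spi-C arrays, all between 6.50 and 6.62, lay just under the lowest TSA(+) array.

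Rnf2 (also called Ring1B) and Ring1 are the ubiquitin ligases of PRC1. The lead probe of Rnf2 read 7.59 to 8.72 (median 8.63) in OC, 4.67 to 5.56 (median 5.07) in IVF, 4.62 to 5.55 (median 5.33) in TSA(-) and 5.36 to 6.07 (median 5.60) in TSA(+). Rnf2 in Spi-C 1.0 read 5.84, 5.77, 5.62 and 5.77, in Spi-C 0.1 5.65, 6.03, 5.79 and 5.86, and in Cumulus 3.72, 3.57, 3.64 and 4.75. OC was above all other arrays, the Spi-C arrays were above all TSA(-) arrays but overlapped TSA(+), and the highest Cumulus array overlapped IVF and TSA(-). Ring1 was dim on its lead probe, with median intensities from 26.3 in IVF to 94.6 in Spi-C 0.1. Its levels were -4.06 to -3.38 (median -3.45) in OC, -6.03 to -5.34 (median -5.46) in IVF, -5.42 to -4.54 (median -5.12) in TSA(-) and -5.79 to -4.06 (median -5.61) in TSA(+). The Ring1 levels were -4.93, -4.58, -4.83 and -4.57 in Spi-C 1.0, -4.73, -4.89, -4.68 and -4.72 in Spi-C 0.1 and -4.69, -4.96, -4.12 and -4.61 in Cumulus. TSA(+) replicate 2 alone reached the range of OC, which otherwise stood above the rest, and every Cumulus array was above every IVF array.

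Bmi1 (Pcgf4) and Pcgf1 are alternative partners of the PRC1 ligases, in canonical and variant complexes. Bmi1 averaged 8.51 ± 0.53 (SD, n = 7) in OC and 2.86 ± 0.20 (SD, n = 4) in Cumulus, with all 5 embryo groups between 6.51 and 6.77 and overlapping. Pcgf1 averaged 8.55 ± 0.63 (SD, n = 7) in OC and 0.91 ± 0.65 (SD, n = 4) in Cumulus, with the embryo groups between 4.53 in TSA(-) and 5.00 in IVF. For both genes OC was apart at the top and Cumulus apart at the bottom. Cbx2, a chromodomain protein that reads methylated H3K27 for PRC1, read 7.47 to 8.47 (median 7.82) in OC, 3.64 to 4.54 (median 4.28) in IVF, 3.98 to 4.81 (median 4.47) in TSA(-) and 4.25 to 4.72 (median 4.46) in TSA(+). For Cbx2, Spi-C 1.0 gave 4.86, 4.73, 5.08 and 5.03, Spi-C 0.1 gave 4.79, 5.31, 4.70 and 5.01, and Cumulus gave 1.58, 0.90, 1.13 and 1.60. The Spi-C groups had the highest Cbx2 means of the embryos, with 3 of 8 arrays inside the range of TSA(-), and IVF, TSA(-) and TSA(+) overlapped.

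Kdm6b (Jmjd3) is the H3K27 demethylase among the 10 genes. Its levels were -0.48 to 3.29 (median 0.79) in OC, -0.51 to 0.33 (median 0.13) in IVF, -1.58 to -0.31 (median -0.83) in TSA(-) and -1.66 to -0.56 (median -1.32) in TSA(+). Kdm6b read -1.08, -0.46, 0.80 and -0.28 in Spi-C 1.0, 0.64, 0.15, 0.27 and 0.46 in Spi-C 0.1, and -2.74, -5.67, -5.07 and -4.20 in Cumulus. The OC arrays were scattered, with replicate 6 far above the rest and replicates 2 and 3 inside the IVF range, and every TSA(+) array was below every IVF array. In TSA(-), 6 of 8 arrays were below all IVF arrays. The Spi-C 0.1 arrays were all higher than every TSA(-) array, whereas Spi-C 1.0 ranged across IVF, TSA(-) and TSA(+), and Cumulus was below every other array.

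Suz12, Ring1, Rnf2, Bmi1 and Cbx2 each had a second probe, and the probes of a gene did not always move the same way. Over 5 genes and 8 comparisons, 20 of 40 pairs of differences had opposite signs, dim probes and small differences included, and both probes passed the threshold in opposite directions, with each above background, for Suz12 in IVF vs OC and for Rnf2 in Spi-C NT vs TSA(-). Suz12 was lower in IVF than in OC on its lead probe (-1.66 on the log2 scale, or 0.61 with quantile normalization) and higher on the other (2.64, adjusted p = 1.7e-10, 6 of 6 arrays above every OC array), for which OC averaged -0.02 ± 0.38 (SD, n = 7) and IVF 2.62 ± 0.12 (SD, n = 6). The second probe of Ring1 was well above background on 0 of 7 OC arrays and 2 of 8 Spi-C arrays, and the IVF levels lay near the background of the OC arrays, so for IVF vs OC it gives neither a size nor a direction. It was brightest in Cumulus, at -0.48 ± 0.78 (SD, n = 4), against -5.46 ± 0.57 (SD, n = 8) in TSA(-). Rnf2 was higher in Spi-C NT than in TSA(-) on its lead probe (0.52) and lower on the other (-0.39, adjusted p = 0.001, 7 of 8 arrays below every TSA(-) array). Which transcript each probe reads was not tested.

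In the other comparisons the second probes of Suz12, Bmi1, Rnf2 and Ring1 gave larger differences than the lead probes in Cumulus vs IVF, at -6.49, -7.51, -3.72 and 4.78, each without overlap, and in TSA(-) vs Cumulus, at 6.79, 7.65, 3.53 and -4.98. In Cumulus those of Suz12 and Bmi1 were dim, with median intensities of 64.0 and 58.5 and SDs of 1.09 and 1.24. They were well above background on 4 of 4 arrays, but the sizes of their differences are imprecise. The second probe of Cbx2 was dim and well above background on 0 of 4 Cumulus arrays, so that Cumulus was at least 3.45-fold lower than IVF by that probe, and its IVF against OC difference of 0.87 (adjusted p = 0.045, 6 of 6 arrays above the OC median) did not pass the threshold, with 1 of 7 OC arrays well above background.

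**Figure D2:**
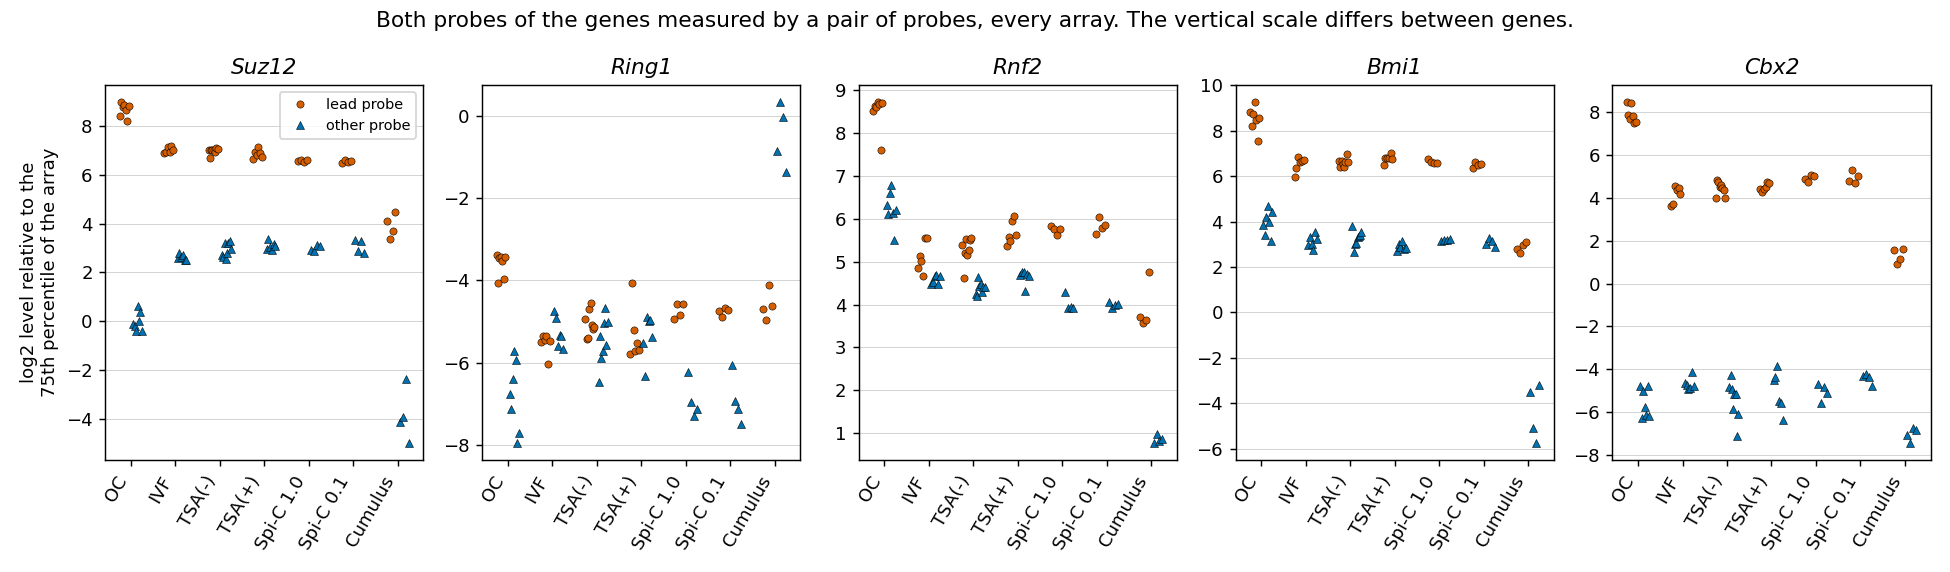
Levels (log2 relative to the 75th percentile of the array) of both probes of Suz12, Ring1, Rnf2, Bmi1 and Cbx2 on every array of the 7 groups. For Suz12 the probes part between OC and IVF, with means of 8.68 and 7.02 on the lead probe, a fall that quantile normalization turns to a rise of 0.61, and -0.02 and 2.62 on the other.

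The choice of scaling moved the median over all tested probes, and quantile normalization and normexp also moved probes relative to it. Each difference is therefore read beside that median. With the 75th percentile that median was -0.87 for IVF vs OC, -0.13 for Cumulus vs IVF, -0.04 for TSA(-) vs IVF, -0.21 for TSA(+) vs IVF, -0.10 for TSA(+) vs TSA(-), 0.11 for TSA(-) vs Cumulus, 0.15 for Spi-C NT vs TSA(-) and 0.02 for Spi-C 1.0 vs Spi-C 0.1. In the same order the medians were -0.33, 0.17, 0.01, 0.02, 0.02, -0.14, 0.00 and -0.01 with quantile normalization, -1.54, 0.75, -0.03, -0.02, 0.09, -0.76, -0.04 and -0.05 after centring every array at its own median, and -1.27, 0.20, -0.21, -0.23, -0.01, -0.41, -0.23 and 0.03 with normexp background correction. Of all probes called, the share that was higher changed side with the scaling, from 43.5% to 63.4% in Cumulus vs IVF, from 42.7% to 59.5% in TSA(+) vs IVF, from 35.1% to 71.8% in TSA(+) vs TSA(-), from 55.4% to 35.2% in TSA(-) vs Cumulus and from 58.0% to 37.0% in Spi-C NT vs TSA(-) when arrays were centred on their medians. Passing the threshold means an adjusted p under 0.01 over all tested probes in limma, a linear model with a moderated variance, and a difference is always the first named group minus the second.

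IVF vs OC asks what changes between the unfertilized oocyte and the fertilized 2-cell embryo. All PRC2 members fell on their lead probes, with Ezh2 at -3.57 (95% confidence interval -3.85 to -3.29, 11.9-fold lower), Ezh1 at -2.56, Eed at -2.22 and Suz12 at -1.66, of which Suz12 turned upward with quantile normalization. On the lead probes all PRC1 members fell too, with Cbx2 at -3.75 (95% confidence interval -4.15 to -3.35, 13.4-fold lower), Pcgf1 at -3.54, Rnf2 at -3.36, Bmi1 at -1.99 and Ring1 at -1.92, of which Bmi1 turned upward with quantile normalization. Of the second probes, that of Rnf2 fell by less (-1.65), those of Bmi1 (-0.83) and Cbx2 (0.87) did not pass, and that of Suz12 was higher. The value of Cbx2 is not an exact size, since 1 of 7 OC arrays was well above background. Of the 10 genes, 9 passed the threshold, all of them lower (7 lower and 1 higher with quantile normalization) and each with every IVF array below every OC array, against 66% of all probes called, 42.6% lower and 23.4% higher. Their adjusted p ranged from 1.4e-19 to 9.5e-09. The demethylase Kdm6b differed by -0.94 (95% confidence interval -1.81 to -0.08, adjusted p = 0.046, 6 of 6 arrays below the OC median) and did not pass.

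Relative to the all-probe median the 10 differences ran from -2.87 for Cbx2 to -0.07 for Kdm6b, with Ezh2 at -2.70, Eed at -1.35 and Suz12 at -0.79. The size depended on the scaling. Before scaling, median intensities went from 106000.0 in OC to 27200.0 in IVF for Ezh2 and from 93400.0 to 22500.0 for Cbx2. They went from 19500.0 to 12700.0 for Eed and from 167000.0 to 150000.0 for Suz12. Kdm6b alone of the 10 was higher in IVF, at 1230.0 against 625.0 in OC. Quantile normalization gave -1.49 for Cbx2, -1.29 for Ezh2, -1.22 for Pcgf1, -1.04 for Rnf2 and -0.43 for Eed, and it turned Suz12 to 0.61 (adjusted p = 0.00036, range over its alternatives 6e-14 to 0.0025) and Bmi1 to 0.32 (adjusted p = 0.044, range 3.2e-13 to 0.044). Averaging the probes of a gene gave Suz12 0.49 and left Ring1 at -0.20 (adjusted p = 0.4, range 1.8e-13 to 0.4), without a call but with its second probe at background in OC. Kdm6b passed with arrays centred on their medians (-1.61, adjusted p = 0.001, range 0.001 to 0.22). Without OC replicate 6, its highest array, Kdm6b was at -0.56 and not called. Within the 2 slides and the 4 scan days that held both groups, all 10 lead probes were lower in IVF each time.

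Cumulus vs IVF and TSA(-) vs Cumulus set the donor cells beside the fertilized and the cloned embryo. The PRC2 genes Ezh2, Eed and Suz12 were lower in Cumulus than in IVF, at -3.33, -3.31 and -3.12, and so were the PRC1 genes Pcgf1 at -4.09, Bmi1 at -3.66, Cbx2 at -2.84 and Rnf2 at -1.21. The demethylase gene Kdm6b was at -4.45 (95% confidence interval -5.45 to -3.44, adjusted p = 3.3e-09, 21.8-fold lower in mean, with 4 of 4 arrays below every IVF array). It was at -3.79 with quantile normalization, -3.56 with median centring and -3.02 with normexp. Ring1 alone was higher in Cumulus, at 0.93 (adjusted p = 0.0026, 4 of 4 arrays above all IVF arrays), and Ezh1 differed by 0.00 (95% confidence interval -0.58 to 0.58). In all, 9 of 10 genes passed the threshold, 1 higher and 8 lower, against 55.2% of all probes, 24% higher and 31.2% lower. Of the 9, all but Rnf2 had groups that did not overlap on the lead probe, and those of Rnf2 did not overlap on its second probe.

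Cloned embryos carry a cumulus nucleus in oocyte cytoplasm. In TSA(-) vs Cumulus the 8 genes that were low in the donor cells were higher in the embryo, from 1.36 for Rnf2 to 3.76 for Bmi1, with Ezh2 at 3.13, Eed at 3.12, Suz12 at 3.09, Cbx2 at 3.12, Pcgf1 at 3.62 and Kdm6b at 3.54. These were 8 of 10 genes called, all higher and 7 of them without overlap, against 54.9% of all probes, 30.4% higher and 24.5% lower. Ezh1 (0.29, adjusted p = 0.37, 6 of 8 arrays above the Cumulus median) and Ring1 (-0.46, adjusted p = 0.11, 7 of 8 arrays below it) did not pass. Ring1 did pass as lower in TSA(-) with quantile normalization (-1.28), array median centring (-1.33), normexp (-0.56) and the mean of both probes (-2.72), over which and its other alternatives the adjusted p ranged from 1.2e-11 to 0.36.

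Both comparisons use the same Cumulus arrays, and the direction of the Ezh2, Eed, Suz12, Bmi1, Pcgf1, Cbx2 and Kdm6b differences held under every alternative that was run. Relative to the all-probe median these 7 genes lay between -4.31 and -2.71 in Cumulus vs IVF, and between 2.98 and 3.65 in TSA(-) vs Cumulus. Rnf2 lost the call of its lead probe with arrays centred on their medians, at -0.33 (adjusted p = 0.26, range 5.1e-13 to 0.26) and 0.48 (adjusted p = 0.081, range 1.9e-13 to 0.081). Ring1 lost its call against IVF without Cumulus replicate 3 (0.77, adjusted p = 0.019, range 1.3e-11 to 0.019) and with replicate number as a block (0.88, adjusted p = 0.014). It also lost that call when a 2-fold change was required. Ezh1 passed as higher in Cumulus than in IVF under median centring (0.88, adjusted p = 0.0069, range 0.0069 to 1.0).

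TSA(-) vs IVF and TSA(+) vs IVF ask what differs in cloned embryos of the same stage, and TSA(+) vs TSA(-) asks what the inhibitor adds. On their lead probes all PRC2 and PRC1 members overlapped between fertilized and cloned 2-cell embryos, while the second probe of Suz12 was higher on 6 of 6 TSA(+) arrays than on every IVF array (0.47, adjusted p = 0.19). The largest differences on lead probes belonged to Kdm6b, at -0.91 in TSA(-) (95% confidence interval -1.75 to -0.07, adjusted p = 0.1, 8 of 8 arrays below the IVF median) and -1.24 in TSA(+) (95% confidence interval -2.14 to -0.34, adjusted p = 0.033, 6 of 6 arrays below every IVF array). In TSA(-) vs IVF, limma called 0 of 10 genes against 18.7% of all probes, with 2 genes at an unadjusted p under 0.05 and 0 by a one-way test with Tukey HSD. TSA(+) vs IVF gave 0 of 10 in limma against 18.8% of all probes, with 3 genes at an unadjusted p under 0.05 and 0 by Tukey HSD. For TSA(+) vs TSA(-) limma called 0 of 10 against 0.144% of all probes, with 0 genes at an unadjusted p under 0.05 and 0 by Tukey HSD. Of all 39520 probes, 14563, 15377 and 6384 were at an unadjusted p under 0.05 in these 3 comparisons, in the same order. The 3 comparisons share arrays, and a difference that missed the threshold is not shown to be absent.

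Among the methyltransferase genes, Ezh2 differed from IVF by -0.20 in TSA(-) (95% confidence interval -0.47 to 0.07) and -0.32 in TSA(+) (95% confidence interval -0.61 to -0.03). The remaining members lay between -0.47 (Pcgf1) and 0.47 (Ring1) in TSA(-), and between -0.28 (Eed) and 0.55 (Rnf2) in TSA(+). Between TSA(+) and TSA(-) the 10 differences ran from -0.33 for Kdm6b to 0.42 for Pcgf1, beside -0.10 for all probes, and no gene had groups that did not overlap.

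Kdm6b was lower than in IVF on 3 of 3 slides and 4 of 4 scan days that held IVF and TSA(-), and on 3 of 3 slides and 3 of 3 days that held IVF and TSA(+). It passed the threshold in TSA(+) vs IVF with quantile normalization (-1.33, adjusted p = 0.0067), normexp (-1.15, adjusted p = 0.0084) or a fit to the compared groups alone (adjusted p = 0.00076), out of a range of 0.00076 to 0.17. In TSA(-) vs IVF it passed only with the fit to the compared groups (adjusted p = 0.0071, range 0.0071 to 0.23). Rnf2 passed as higher in TSA(+) than in IVF with quantile normalization (0.73, adjusted p = 0.0049, range 0.0049 to 0.16).

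Spi-C NT vs TSA(-) asks what the injected Spi-C mRNA changes in cloned embryos. On their lead probes 3 PRC2 core genes were lower in the Spi-C embryos, with Ezh2 at -0.71 (95% confidence interval -0.89 to -0.53, adjusted p = 8.9e-07, 8 of 8 arrays below every TSA(-) array), Eed at -0.68 (95% confidence interval -0.87 to -0.49, adjusted p = 2.4e-06, 8 of 8 arrays below every TSA(-) array) and Suz12, which quantile normalization brings to -0.05, at -0.43 (95% confidence interval -0.60 to -0.26, adjusted p = 0.00022, 8 of 8 arrays below every TSA(-) array). Of the PRC1 genes, Rnf2 was higher on its lead probe, though not on its other probe, at 0.52 (95% confidence interval 0.22 to 0.82, adjusted p = 0.0077, 8 of 8 arrays above every TSA(-) array). Cbx2 was higher at 0.51 (95% confidence interval 0.21 to 0.82, adjusted p = 0.0094, 5 of 8 arrays above every TSA(-) array). Both calls were lost with arrays centred on their medians. Leaving out any of 10 of 16 arrays also ended the call of Rnf2, and any of 12 of 16 that of Cbx2. Bmi1 (-0.05), Pcgf1 (0.01) and Ring1 (0.31) did not pass. The second probe of Ring1 was called lower (-1.44, adjusted p = 9.8e-05, 8 of 8 arrays below the TSA(-) median). With 2 of 8 Spi-C arrays well above background, that value is not an exact size. The demethylase Kdm6b was higher at 0.95 (95% confidence interval 0.48 to 1.42, adjusted p = 0.0023, 6 of 8 arrays above every TSA(-) array). Thus 6 of 10 genes passed, 3 higher and 3 lower (0 higher and 4 lower, Ezh1 among them, with arrays centred on their medians) and 4 of them without overlap, against 20.9% of all probes, 12.1% higher and 8.8% lower. Relative to the all-probe median, Ezh2, Eed and Suz12 were at -0.86, -0.83 and -0.58, and Rnf2, Cbx2 and Kdm6b were at 0.37, 0.36 and 0.79. The 7 oocyte markers were lower in sum as well, at 402 and 381 in the Spi-C groups against 550.0 in TSA(-), with Oosp1 brightest and 7 of 7 well above background. By group mean, however, Zp1, Zp3 and Nlrp5 were higher in both Spi-C groups than in TSA(-). Before scaling, median intensities did not fall, from 28500.0 in TSA(-) to 29700.0 in Spi-C 1.0 and 29900.0 in Spi-C 0.1 for Ezh2, and from 13600.0 to 14000.0 and 15400.0 for Eed, while the 75th percentile rose as given above. The part of either in the differences was not tested. No slide or day held both groups, so the difference has no value within a slide or a day.

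Spi-C 1.0 vs Spi-C 0.1 compares the doses on the same slides and day. Limma called 0 of 10 genes against 0.00506% of all probes, with 0 at an unadjusted p under 0.05 (1624 of 39520 probes) and 0 by Tukey HSD. The largest difference on a lead probe was that of Kdm6b, at -0.64 (95% confidence interval -1.30 to 0.03), lower at the higher dose on both slides, and the other 9 lay between -0.08 and 0.11.

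Of the 6 calls, those of Ezh2 and Eed were lost only when a 2-fold change was also required. Suz12 lost its call under that limit, with quantile normalization (-0.05, adjusted p = 0.64) and with the mean of both probes (-0.15, adjusted p = 0.17), out of a range of 3.9e-06 to 0.64, and its second probe differed by 0.12. Kdm6b lost its call in 5 of 16 alternatives, with arrays centred on their medians at 0.76 (adjusted p = 0.012, range 0.00052 to 0.054). The call of Cbx2 was lost on leaving out any of 12 of 16 arrays, with the adjusted p in parentheses, namely TSA(-) replicates 1, 4, 5, 6, 7 and 8 (0.023, 0.013, 0.01, 0.015, 0.017 and 0.023, respectively), Spi-C 1.0 replicates 1, 3 and 4 (0.013, 0.02 and 0.019, respectively) and Spi-C 0.1 replicates 1, 2 and 4 (0.011, 0.025 and 0.017, respectively), and in 9 of 16 other alternatives (overall range 0.0011 to 0.13). Without each of these arrays the Cbx2 difference was between 0.45 and 0.54. The call of Rnf2 was lost without any of 10 of 16 arrays, namely TSA(-) replicates 2, 3, 5 and 6 (0.017, 0.014, 0.014 and 0.013, respectively), Spi-C 1.0 replicates 1, 2 and 4 (0.015, 0.014 and 0.014, respectively) and Spi-C 0.1 replicates 2, 3 and 4 (0.018, 0.012 and 0.014, respectively), at differences between 0.42 and 0.52, and in 7 of 16 other alternatives (overall range 0.00012 to 0.65). Averaging the probes brought Rnf2 to 0.06. Ezh1 missed the threshold at -0.37 (adjusted p = 0.011, 8 of 8 arrays below the TSA(-) median). It passed without TSA(-) replicate 2 (-0.42, adjusted p = 0.0028, range 0.0017 to 0.18). Ezh1 also passed with quantile normalization, array median centring, normexp, the authors' values and a filter on probes well above background. A limit of 0.05 on the adjusted p called it as well. Ring1 turned to -0.11 with normexp and to -0.57 with the mean of both probes, the second of them dim (adjusted p = 0.0035, range 0.0035 to 0.96).

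**Figure D3:**
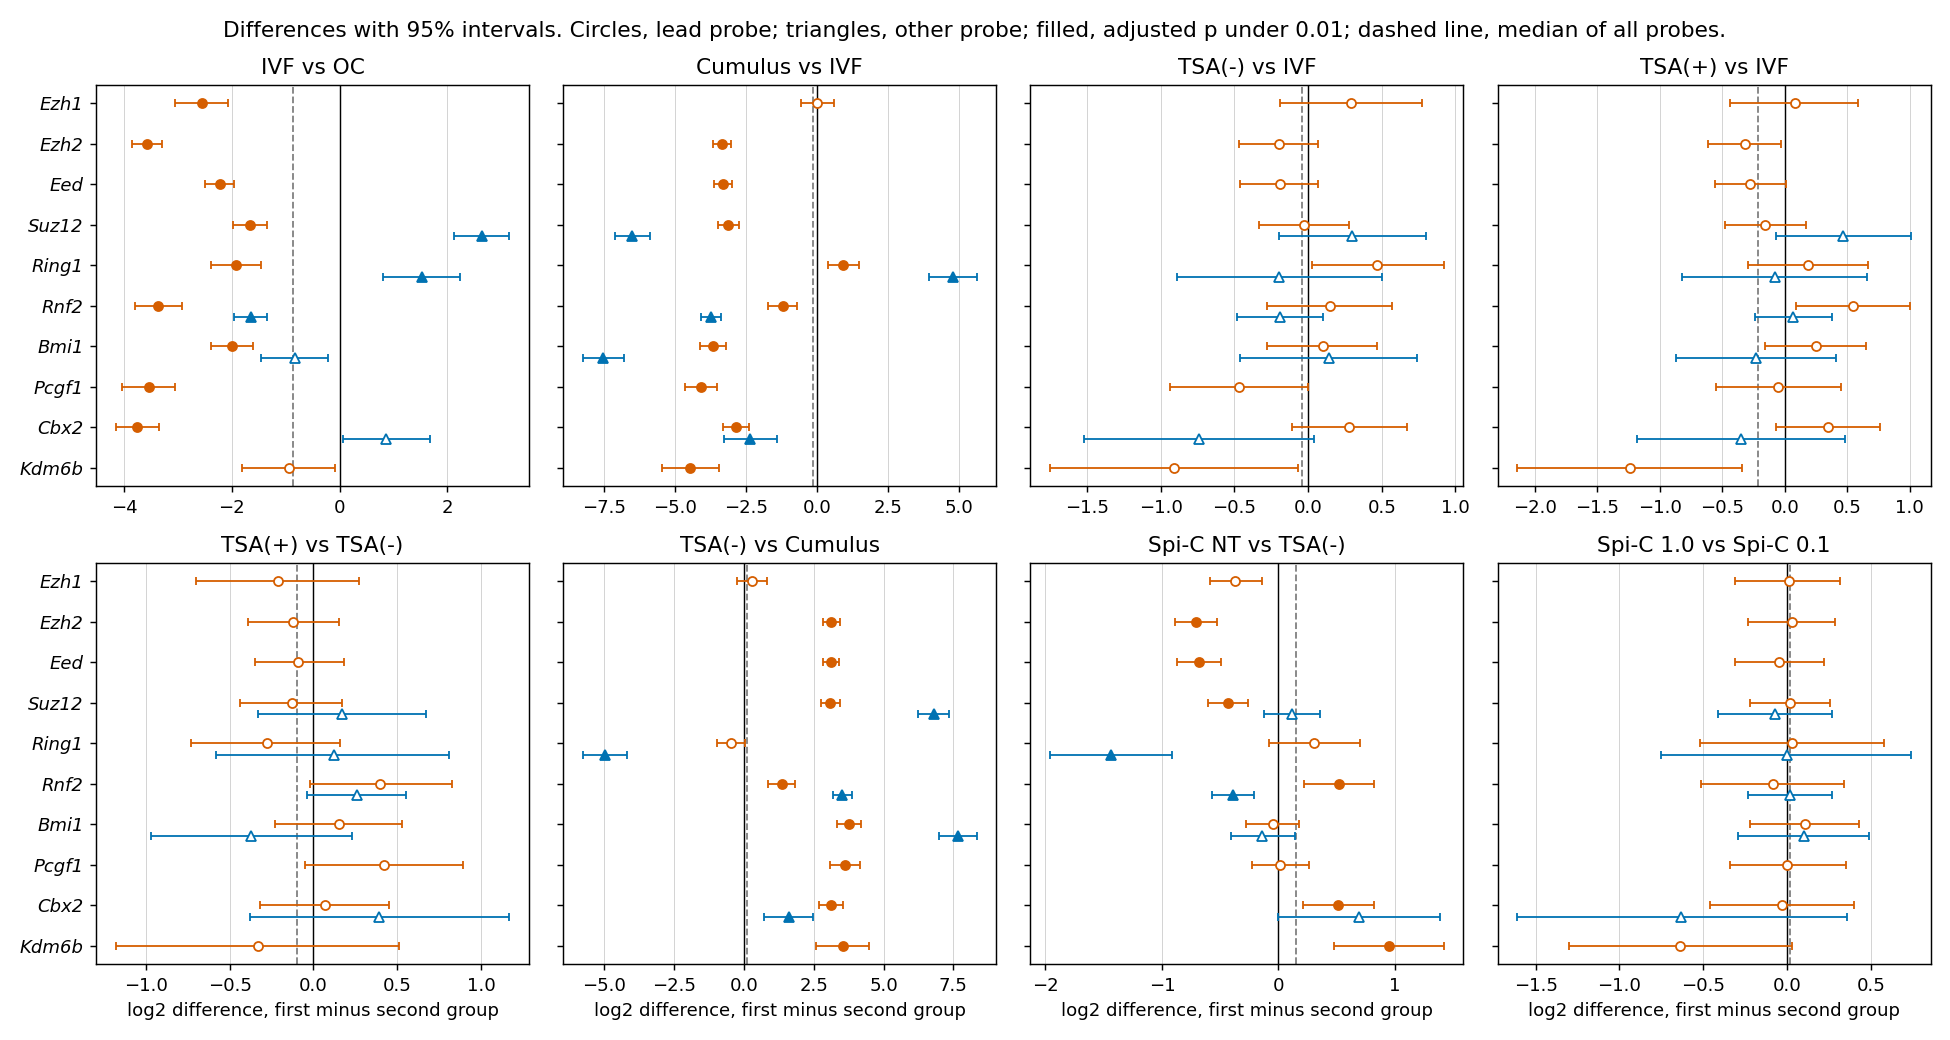
Log2 differences of the 10 genes in the 8 comparisons with 95% confidence intervals, as circles for the lead probe and triangles for the other probe, filled where the adjusted p was under 0.01, with a dashed line at the median of all probes. The Ring1 triangle in IVF vs OC rests on OC values at background. In Spi-C NT vs TSA(-), Ezh2 (-0.71), Eed (-0.68) and Suz12 (-0.43) lie below 0 while Rnf2 (0.52), Cbx2 (0.51) and Kdm6b (0.95) lie above it, and Suz12 moves to -0.05 with quantile normalization.

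The 10 genes belong to a wider list of 44 Polycomb and H3K27 genes, made of PRC2 and its accessory factors, PRC1, the H2A deubiquitinase subunits Bap1 and Asxl1 to Asxl3, and the Kdm6 enzymes. Of these, 42 were tested, without Ezhip and Scml2. In IVF vs OC 12 were called higher and 26 lower, against 23.4% and 42.6% of all probes (median -1.96, or -1.81 with genes at background in a group set at their bound, beside -0.87 for all probes), and 13 higher and 21 lower with quantile normalization (median -0.55, beside -0.33). The lower ones included 11 of 12 PRC2 genes and 12 of 23 PRC1 genes, and PRC1 held 8 of the higher ones. Among the largest rises without overlap were those of the chromodomain gene Cbx8, which was at least 17.8-fold higher in IVF because 0 of 7 OC arrays were above background, the PRC1 partner gene Pcgf3 (5.19, adjusted p = 7e-21), and Bcorl1 (3.21, adjusted p = 4.7e-13) and Bcor (3.13, adjusted p = 3.8e-13), whose products work with Pcgf1. Phc3, a polyhomeotic subunit of PRC1, fell by 4.89 on the log2 scale (adjusted p = 1.1e-12), and Yaf2, which binds the PRC1 ligases, fell by 3.85 (adjusted p = 7.5e-17), and Cbx2, Ezh2 and Pcgf1 came next. For each of these named genes the groups did not overlap and every IVF array lay on the same side of OC.

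In Cumulus vs IVF the list had 3 genes higher and 27 lower of 42, against 24% and 31.2% of all probes (median -1.44, beside -0.13 for all probes), which became 11 and 20 with arrays centred on their medians. Phc3 (4.13, adjusted p = 1.2e-09) was higher in Cumulus, as was Ring1. Asxl3, a partner of the Bap1 deubiquitinase, was at least 23.6-fold lower, and Rybp, which binds the PRC1 ligases, was at -5.76 (adjusted p = 3e-22). The PRC2 accessory genes Phf1 and Phf19 were at -4.91 (adjusted p = 1.7e-19) and -4.27 (adjusted p = 5.3e-13). All 4 Cumulus arrays lay beyond every IVF array for each of these. With normexp Asxl3 was at -2.35 and Phf19 at -2.82. TSA(-) vs Cumulus had 23 higher and 7 lower, against 30.4% and 24.5% of all probes (median 1.41, beside 0.11 for all probes), and 20 and 14 with median centring. Asxl3 was at least 13.6-fold higher in TSA(-), and Phf1 (5.20, adjusted p = 1.1e-20), Rybp (5.10, adjusted p = 1.7e-21) and L3mbtl2 of a variant PRC1 (4.25, adjusted p = 3.4e-12) were the next largest rises, ahead of Bmi1. Among those lower in TSA(-) were Phc3 (-3.70, adjusted p = 3.7e-09), Bcor (-0.93, adjusted p = 0.0018), the polyhomeotic gene Phc1 (-0.87, adjusted p = 0.00037) and the PRC2 accessory gene Jarid2 (-0.86, adjusted p = 6e-05). Each of these had all 8 TSA(-) arrays on one side of Cumulus. With normexp Asxl3 was at 1.68 and L3mbtl2 at 1.74, and median centring put Bcor, Phc1 and Jarid2 at -1.81, -1.74 and -1.74.

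Of the wider list, 2 of 42 genes were called higher and 3 lower in TSA(-) vs IVF, against 18.7% of all probes (median -0.21, beside -0.04 for all probes). The counts were 3 and 4 with quantile normalization, 2 and 3 with median centring and 2 and 8 with normexp. Uty, the Y-linked relative of the demethylase Kdm6a, was well above background on 6 of 6 IVF arrays and on 0 of 8 TSA(-) and 0 of 6 TSA(+) arrays, so that it was at least 5.08-fold and at least 6.52-fold lower in TSA(-) and TSA(+). The donor cells came from females, which lack the Y chromosome, so Uty gives no measure of what cloning does to a gene that the embryos carry. Uty is 1 of the lower genes in each count, and with normexp its differences were -1.04 in TSA(-) and -0.95 in TSA(+). In TSA(-), Bcor (-1.83, adjusted p = 2.4e-07) and Rybp (-0.66, adjusted p = 0.00082) were lower and the PRC2 accessory gene Mtf2 was higher (0.76, adjusted p = 0.001), each in 8 of 8 arrays beyond every IVF array. The fifth gene was Pcgf5, chosen here after its values were seen, at 0.67 (adjusted p = 0.004, mean 5.06 over 8 arrays, overlapping those of IVF).

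TSA(+) vs IVF had 2 genes higher and 5 lower, against 18.8% of all probes (median -0.10, beside -0.21), and 3 and 8 with quantile normalization, 3 and 2 with median centring and 2 and 9 with normexp. Beside Uty, Bcor (-1.24, adjusted p = 0.00017), Pcgf3 (-0.83, adjusted p = 0.00078), Rybp (-0.64, adjusted p = 0.0022) and Jarid2 (-0.60, adjusted p = 0.0052) were lower and Pcgf5 (0.84, adjusted p = 0.00095) was higher, each in 6 of 6 arrays beyond every IVF array. Pcgf3, Rybp and Jarid2 each missed the threshold under 1 of 3 other scalings. TSA(+) vs TSA(-) had 0 of 42 called in limma, against 0.144% of all probes (median 0.03, beside -0.10 for all probes). At an unadjusted p under 0.05 there were 4, against 6384 of 39520 probes. The PRC2 accessory gene Epop passed under median centring and under normexp. In Spi-C NT vs TSA(-), 6 of 42 were higher and 7 lower, against 12.1% and 8.8% of all probes (median 0.06, or 0.00 at the bounds, beside 0.15). The same counts were 7 and 7 with quantile normalization, 1 and 9 with median centring and 7 and 10 with normexp. The largest falls were those of the chromodomain genes Cbx7 (-1.97, adjusted p = 1.9e-07) and Cbx8 (-1.70, adjusted p = 1.2e-07), with 8 of 8 Spi-C arrays below every TSA(-) array, ahead of Ezh2, Eed and Suz12. Spi-C 1.0 vs Spi-C 0.1 had 0 of 42 called in limma, against 0.00506% of all probes (median -0.04, beside 0.02). At an unadjusted p under 0.05 there were 0, against 1624 of 39520 probes.

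The Hox genes are classic targets of Polycomb silencing, and 35 of them were tested. Many of them read near background. Those well above it on every array of a group numbered 24 in IVF, 9 in OC, 9 in TSA(-), 11 in TSA(+), 13 in each Spi-C group and 10 in Cumulus. Of the 35, 21 were called lower and 0 higher in TSA(-) vs IVF, against 18.7% of all probes called in either direction (median -2.29, or -2.23 with genes at background set at their bound, beside -0.04 for all probes). The counts were 21 lower and 0 higher in TSA(+) vs IVF, against 18.8% (median -2.65, or -2.27, beside -0.21). Of the lead probes of all named genes, 13.3% were called lower in TSA(-) vs IVF and 13.7% in TSA(+) vs IVF. Under the 3 other scalings 21 to 25 Hox genes were lower in TSA(-) and 20 to 25 in TSA(+), with 0 higher in each. The medians shrank to -0.80 and -1.06 with normexp, beside -0.21 and -0.23. In IVF vs OC 14 were higher and 6 lower (median 0.36, or 0.24, beside -0.87), against 23.4% and 42.6% of all probes, and 15 and 8 with quantile normalization, 12 and 12 with median centring, and 8 and 21 with normexp. Under those 3 scalings the median was 1.11, -0.31 and -0.82, beside -0.33, -1.54 and -1.27 for all probes, so its sign turned.

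In Cumulus vs IVF 3 Hox genes were higher and 21 lower (median -2.0, or -1.42, beside -0.13 for all probes), against 24% and 31.2% of all probes. They were 7 and 18 with quantile normalization, 7 and 17 with median centring and 6 and 16 with normexp, where the median was -0.51. With the 75th percentile the higher ones, named after their values were seen, were Hoxa3, Hoxa6 and Hoxb7. TSA(-) vs Cumulus had 10 higher and 11 lower (median -0.54, or 0.00, beside 0.11), against 30.4% and 24.5% of all probes. Its counts were 8 and 15 with quantile normalization, 7 and 17 with median centring and 4 and 22 with normexp. Spi-C NT vs TSA(-) had 2 higher and 1 lower (median 0.20, or 0.00, beside 0.15), against 12.1% and 8.8% of all probes, and 2 and 3 with quantile normalization, 2 and 2 with median centring and 1 and 20 with normexp. The 3 genes called with the 75th percentile, also named after their values were seen, were Hoxa3 (1.81, adjusted p = 6.8e-08, no overlap over 8 against 8 arrays), Hoxd3 (1.30, adjusted p = 0.001, well above background on 4 of 8 and 1 of 8 arrays) and Hoxd13 (-0.96, adjusted p = 0.0012, overlapping arrays). Limma called 0 of 35 in TSA(+) vs TSA(-), against 0.144% of all probes (median -0.30, or -0.06, beside -0.10). That median was 0.03 with quantile normalization, -0.11 with median centring and 0.01 with normexp. At an unadjusted p under 0.05 there were 5, against 6384 of 39520 probes. In Spi-C 1.0 vs Spi-C 0.1 limma called 0 of 35, against 0.00506% of all probes (median -0.03, or 0.00, beside 0.02). At an unadjusted p under 0.05 there was 1, against 1624 of 39520 probes. Whether the Hox and the Polycomb differences are related was not tested.

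The genes whose lead probes ran closest to the members were looked up among 15267 lead probes over the 39 arrays, by Pearson correlation. The arrays fall into 7 groups and share slides, so these values are descriptions. In PRC2, Ezh2 was closest to Mat2b (r = 0.995) and Mfn1 (r = 0.993), Eed to Arih1 (r = 0.993) and Dsn1 (r = 0.992), Suz12 to Wdr20 (r = 0.993) and Lrrc40 (r = 0.993), and Ezh1 to Fkbp5 (r = 0.976) and Midn (r = 0.963). In PRC1, Pcgf1 was closest to Pcgf6 (r = 0.993) and Haus4 (r = 0.992), Rnf2 to Ect2 (r = 0.984) and Nucks1 (r = 0.978), Bmi1 to Lin54 (r = 0.992) and Casp8ap2 (r = 0.991), Cbx2 to Lratd2 (r = 0.985) and Rnf26 (r = 0.984), and the dim Ring1 to Pggt1b (r = 0.881) and Olfr223 (r = 0.875). Kdm6b was closest to Prr5l (r = 0.935) and Wwc2 (r = 0.933).

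The lead probes, as the array names them, were A_52_P237871 for Ezh1, A_51_P248067 for Ezh2, A_51_P238643 for Eed, A_51_P214796 for Suz12, A_52_P41728 for Ring1, A_51_P382253 for Rnf2, A_52_P39157 for Bmi1, A_51_P216211 for Pcgf1, A_52_P13730 for Cbx2 and A_51_P122017 for Kdm6b. In the RefSeq annotation of GRCm38.p6, 4 of the 10 genes lie on chromosome 11, with Ezh1 at chr11:101191115-101226463, Suz12 at chr11:79993106-80034123, Cbx2 at chr11:119023019-119031275 and Kdm6b at chr11:69398508-69420367. Chromosome 6 carries Ezh2 at chr6:47530274-47595270 and Pcgf1 at chr6:83077552-83080855. Eed is at chr7:89954654-89980976, Ring1 at chr17:34020792-34024680, Rnf2 at chr1:151469398-151500991 and Bmi1 at chr2:18677018-18686629.

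Spi-C belongs to the ETS family, whose members bind DNA around the letters GGAA. The 250 bases before the start that the promoter table gives for each gene were searched on both strands for GAGGAA, a choice made after the results were seen. RefSeq promoter sequences (GRCm38.p6) were at hand for 7 of the 10 genes, without Pcgf1, Cbx2 and Kdm6b. The letters occurred in 2 of the 7, Ezh2 and Eed, and in 23.1% of 27025 promoters of the same length, and they were not in the windows of Ezh1, Suz12, Ring1, Rnf2 and Bmi1. For Ezh2 that start lies inside the gene as placed above, so that 240 of the 250 bases and the match are within the gene. A match is a description of the sequence and not a site. The 30-base stretches around the matches are shown because Ezh2 and Eed were called lower in Spi-C embryos under each scaling, both read on the minus strand, in the direction of the gene, with capitals for the reverse complement of GAGGAA, at chr6:47595203-47595232 and chr7:89981024-89981053.
Ezh2: cagcaagccgcgTTCCTCagagcgagccct
Eed: ggtgacttctctTTCCTCccccctccctcg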

How the data were processed

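Total RNA of the 39 samples was amplified in 2 rounds, labelled with Cy3 and hybridized to Agilent whole mouse genome arrays by the authors. The deposited array files give the signal of each spot as an intensity, background-subtracted by Agilent Feature Extraction (9.5.3.1, or 10.5.1.1 for Cumulus and Spi-C per the file headers), and the authors also deposited a table of log2 values centred on each probe, whose correlation with the values used here was 0.99991. Intensities were put on the log2 scale, and the 75th percentile of each array was subtracted. The 1820 spot values that the scanner software marked as outliers were left out, as were 1639 control spots. Probes with an intensity of at least 10 on at least 1 embryo array were kept.

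Differences were fitted with limma 3.58.1 (lmFit and eBayes, R 4.3.3), once over OC, IVF, TSA(-), TSA(+) and Cumulus and once over IVF, TSA(-), TSA(+), Spi-C 1.0 and Spi-C 0.1, with Spi-C NT as the mean of both doses. Benjamini-Hochberg adjustment ran over all 39520 probes, and an adjusted p under 0.01 was the threshold. Of the lead probes of all 18049 named genes, 72% passed in IVF vs OC, 64.7% in Cumulus vs IVF and 63.7% in TSA(-) vs Cumulus. The shares were 23.6% in TSA(-) vs IVF, 24.3% in TSA(+) vs IVF and 24.2% in Spi-C NT vs TSA(-). The text names all 10 genes, up to 5 genes of the wider list in each direction per comparison (the largest differences among those called, with no overlap between the groups and with all arrays of the higher group well above background), the 2 genes closest to each of the 10 by correlation, and the cell type markers. Of the wider list, 1 gene is counted but not reported by name here. Members, lists and comparisons were chosen with earlier results of these data known. Alternatives were quantile normalization, array median centring, normexp with an offset of 50, the authors' values, other filters, outlier spots kept, the mean over the probes of a gene, other sets of groups in the fit, a one-way test with Tukey HSD, an adjusted p under 0.05, an added 2-fold limit, blocks for slide, scan day and replicate number (statmod 1.5.0), and leaving out each array. Python 3.11.15 with pandas 2.3.3, numpy 2.4.6, scipy 1.17.1 and matplotlib 3.10.9 did the rest.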

Additional observations from a re-analysis of the deposited data

Results flagged for a closer look

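In 9 of 70 combinations of gene and group, 1 array stood far from the others of its group by Dixon's criterion, which chance alone meets in about 1 of 20 groups. TSA(-) replicate 2 was the lowest of its group on the lead probes of 7 of the 10 genes, and met the criterion for 3 of them. For Ezh2 it read 3.99 against 4.24 to 4.45 on the other arrays, for Suz12 6.68 against 6.95 to 7.11 on the other arrays, and for Rnf2 4.62 against 5.16 to 5.55 on the other arrays. For Ring1, IVF replicate 5 was low at -6.03 against -5.49 to -5.34 on the other arrays, and TSA(+) replicate 2 was high at -4.06 against -5.79 to -5.21 on the other arrays. Rnf2 was low on OC replicate 6 at 7.59 against 8.52 to 8.72 on the other arrays, and high on Cumulus replicate 4 at 4.75 against 3.57 to 3.72 on the other arrays. Ezh1 was low on TSA(+) replicate 3 at -1.42 against -1.13 to -0.97 on the other arrays, and Bmi1 was high on Spi-C 1.0 replicate 1 at 6.75 against 6.57 to 6.60 on the other arrays. All of these spots were well above background, and why they stand apart was not tested.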

How the results depend on the processing

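Each of 40 pairs of gene and comparison, those called under at least 1 setting, was recomputed under 16 alternatives and without each array of the groups compared. Of 32 pairs called, 20 kept their call and direction in every alternative. Over all values, 1060 kept direction and side of the threshold, 54 lost the call, 20 gained one and 10 turned in sign. The number of genes called moved to 1 in TSA(-) vs IVF with only the groups compared. In TSA(+) vs IVF it moved to 1 at an adjusted p under 0.05, 2 with quantile normalization, 1 with normexp and 1 with only the groups compared. In Spi-C NT vs TSA(-) it moved by more than 1.5 times with a 2-fold limit, to 0, and with all 7 groups together, to 3. Smaller moves there are not listed, such as those with median centring, only the groups compared or replicate number as a block. Leaving out 1 array moved no count by more than 1.5 times, and Tukey HSD gave the same counts in all 8 comparisons. Turned in sign were Suz12 in IVF vs OC with quantile normalization (0.61) and the mean over probes (0.49), Bmi1 in IVF vs OC with quantile normalization (0.32), and Ring1 in Spi-C NT vs TSA(-) with normexp (-0.11) and the mean over probes (-0.57). Ezh1 in Cumulus vs IVF, at 0.00, was -0.01 with the authors' values and -0.29 to 0.44 when arrays were left out, below 0 without IVF replicate 2 or 4 or Cumulus replicate 1 or 4. The cause was not tested.

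Across groups, arrays with the same replicate number had residual correlations of -0.087 to 0.085 over 44 pairs of arrays. Few arrays per group, 1 slide for Cumulus, and no slide or day shared by Spi-C NT and TSA(-) limit every comparison with those groups. The second probe of Ring1 in OC and Spi-C NT and that of Cbx2 in OC and Cumulus read at background on most arrays.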
